A study of Mus musculus with 63 samples.

Results

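The genes described here are 32 mouse genes of cholesterol synthesis, its control, and the movement, storage and removal of cholesterol. They were chosen by symbol from a textbook list, and all 32 were found among the 55401 genes of the deposited count table through their Ensembl identifiers in GENCODE M21. The genes were divided by role into 8 of the mevalonate and isoprenoid steps, 11 of the squalene and sterol steps, 5 regulators, and 8 of transport, storage and elimination. All 32 passed the filter on low counts, which kept 19974 genes, and the lowest count of any of them in any library was 141.

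Dorsal hippocampus came from 2 inbred strains, C57BL/6J (31 libraries) and DBA/2J (32 libraries), as adolescents of both sexes, and its RNA was sequenced after poly(A) selection with a stranded kit. The mice had received an acute injection of ethanol at 1.5 g/kg or of saline, and were either put through fear conditioning (FC, in which a context or cue is paired with a foot shock) or kept as a control without it (noFC). Strain, sex, drug and conditioning gave 16 groups of 4 libraries, except that saline-injected, conditioned C57BL/6J males had 3. No transgene or targeted allele was named in any group, and neither the exact age nor the interval between injection, conditioning and dissection is given in the sources used here. The labels also do not state that libraries of a group came from separate animals, so the p-values measure the spread between these libraries.

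Sequencing depth ran from 21027659 to 61631742 counts per library, with a median of 26379948, and no 2 libraries held identical values. Library titles carry a number and a letter, and the letters given to ethanol and saline were reversed from the lower numbers (31 libraries, called the first round) to the higher ones (32 libraries, the second round). The letters of conditioning were not reversed: in both rounds FC had A or C, and noFC had B or D. What the numbers and letters stand for is not stated. Summed neuronal markers had similar means in the strains, 12200 and 12620 CPM (counts scaled to a common library size), and no marker of the neuronal list was at 0. Summed markers of choroid plexus, an epithelium next to the hippocampus, varied far more, from 202 to 19080 CPM in C57BL/6J and from 230 to 17550 CPM in DBA/2J. In whole tissue, fewer cells of a type and less RNA per cell cannot be told apart.

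Cholesterol does not cross the blood-brain barrier to any useful extent, so the brain makes its own from acetyl-CoA through mevalonate, isoprenoids, squalene and a series of sterols. When sterols in the endoplasmic reticulum are low, the escort protein encoded by Scap carries SREBP-2, the product of Srebf2, to the Golgi, where it is cleaved into a transcription factor for most genes of the pathway; the INSIG proteins retain the complex when sterols are high, and Insig1 is itself a target. Oligodendrocytes use cholesterol for myelin, astrocytes supply it to neurons on apolipoprotein E, and neurons dispose of the excess by hydroxylating it with the enzyme encoded by Cyp46a1.

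Sequence upstream of the start site was examined because sterol regulation of these genes acts there, through sterol regulatory elements bound by SREBP together with NF-Y and Sp1. The RefSeq table for GRCm38.p6 held 36 start sites of 26 of the 32 genes. Abcg1, Fdps, Fdft1, Sqle, Npc1 and Stard4 were not matched. The 4 stretches printed here belong to the gene with a match to the sterol element (Hmgcs1), the feedback regulator (Insig1), the gene that varied most closely with it among the 32 (Lss), and the gene with the strongest strain test (Sc5d). Each is written 5′ to 3′ on the gene's strand and ends before the annotated gene start. Capitals mark matches on either strand to TCACNCCAC (a core of the sterol regulatory element), CCAAT (the NF-Y box, ATTGG on the other strand) or GGGCGG (the Sp1 box, CCGCCC on the other strand).
Hmgcs1, chr13:119690101-119690350, plus strand: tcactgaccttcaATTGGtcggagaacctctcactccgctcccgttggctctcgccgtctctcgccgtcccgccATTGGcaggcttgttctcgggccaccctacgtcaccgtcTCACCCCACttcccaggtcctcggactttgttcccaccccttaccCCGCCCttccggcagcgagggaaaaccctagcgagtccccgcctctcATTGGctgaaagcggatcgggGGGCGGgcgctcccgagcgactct
Insig1, chr5:28071162-28071362, plus strand: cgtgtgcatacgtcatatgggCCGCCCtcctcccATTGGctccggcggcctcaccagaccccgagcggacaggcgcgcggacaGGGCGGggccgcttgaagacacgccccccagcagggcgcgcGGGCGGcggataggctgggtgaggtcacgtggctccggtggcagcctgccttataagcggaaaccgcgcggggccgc
Lss, chr10:76531355-76531587, plus strand: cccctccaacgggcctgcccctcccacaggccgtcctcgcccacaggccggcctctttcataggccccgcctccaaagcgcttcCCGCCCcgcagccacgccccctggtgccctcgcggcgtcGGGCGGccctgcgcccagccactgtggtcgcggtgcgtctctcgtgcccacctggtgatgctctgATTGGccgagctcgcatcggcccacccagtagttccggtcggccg
Sc5d, chr9:42264301-42264550, minus strand: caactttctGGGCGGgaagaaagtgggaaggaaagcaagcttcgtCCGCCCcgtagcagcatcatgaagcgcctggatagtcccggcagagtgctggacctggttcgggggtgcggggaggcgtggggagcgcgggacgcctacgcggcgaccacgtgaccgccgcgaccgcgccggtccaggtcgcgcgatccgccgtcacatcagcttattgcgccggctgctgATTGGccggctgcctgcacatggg
Hmgcs1 was the one gene of the 26 whose upstream 250 bases held TCACNCCAC, which occurs in 1.05% of all 32851 promoters in the table. It also held 3 matches to CCAAT and 2 to GGGCGG. The NF-Y box CCAAT was present in 23 of the 36 promoters, against 33.8% of all promoters, and GGGCGG in 25 of the 36, against 32.7% of all. These are matches of letters in the sequence, with no measure of binding.

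Levels of the genes differed by more than 2 orders of magnitude per kilobase of the deposited gene length. That length can exceed any single transcript: for Lss it was 10787 bases, beside 6992 for its longest transcript. Apoe, which encodes the main lipid carrier released by astrocytes, stood highest at 604 ± 49.2 CPM per kb (SD, n = 63). Hmgcs1, encoding the cytosolic synthase that makes HMG-CoA, followed at 65.3 ± 6.72 CPM per kb, then Cyp46a1 at 37.9 ± 2.77 and Srebf2 at 31.6 ± 2.21 CPM per kb. Idi1, whose product interconverts the isoprenoid building blocks, was lowest at 2.25 ± 0.277 CPM per kb. Next above it were Soat1, encoding the enzyme that esterifies cholesterol for storage, at 3.73 ± 0.322, and Lss, encoding lanosterol synthase, at 4.61 ± 0.411 CPM per kb. Over all 63 libraries Fdft1 varied least, with a coefficient of variation of 5.72%, and Stard4, Sc5d and Npc2 varied most, at 20.2%, 19.9% and 18.3%. The first of these, Stard4, encodes a soluble carrier that moves sterol between membranes, and Npc2 a lysosomal cholesterol-binding protein.

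Between the strains, 19 of the 32 genes differed, with higher levels in DBA/2J for 10 and lower levels for 9, among 50% of all genes called in the same comparison (25.5% higher and 24.5% lower). A gene was called when the p-value of edgeR's quasi-likelihood test, adjusted by the Benjamini-Hochberg method over all 19974 genes, was below 0.05. The direction was mixed within every role: 3 genes were higher and 2 lower of the 8 early steps, 3 higher and 5 lower of the 11 later steps, 1 higher and 1 lower of the regulators, and 3 higher and 1 lower of the transport group. The median log2 difference of the 32 genes was 0.01, beside 0.005 for all genes, and the median size of the difference was 0.07, beside 0.11. The 2 ends of the range were Sc5d and Stard4. For these and for Ggps1 the ranges of the strains did not overlap. How many of all genes had ranges apart was not computed. Fitted within the rounds of title numbers, 14 of the 32 genes were called in the first, among 35.3% of all genes, and 13 in the second, among 35.6%. Mvk, Ggps1, Cyp51, Nsdhl, Sc5d, Stard4, Soat1, Abca1 and Apoe were called in both rounds. Among the smaller differences, leaving out single libraries ended the call of Fdft1 in 25 of 63 fits, of Acat2 in 20, of Insig2 in 12 and of Fdps in 2.

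**Figure D1:**
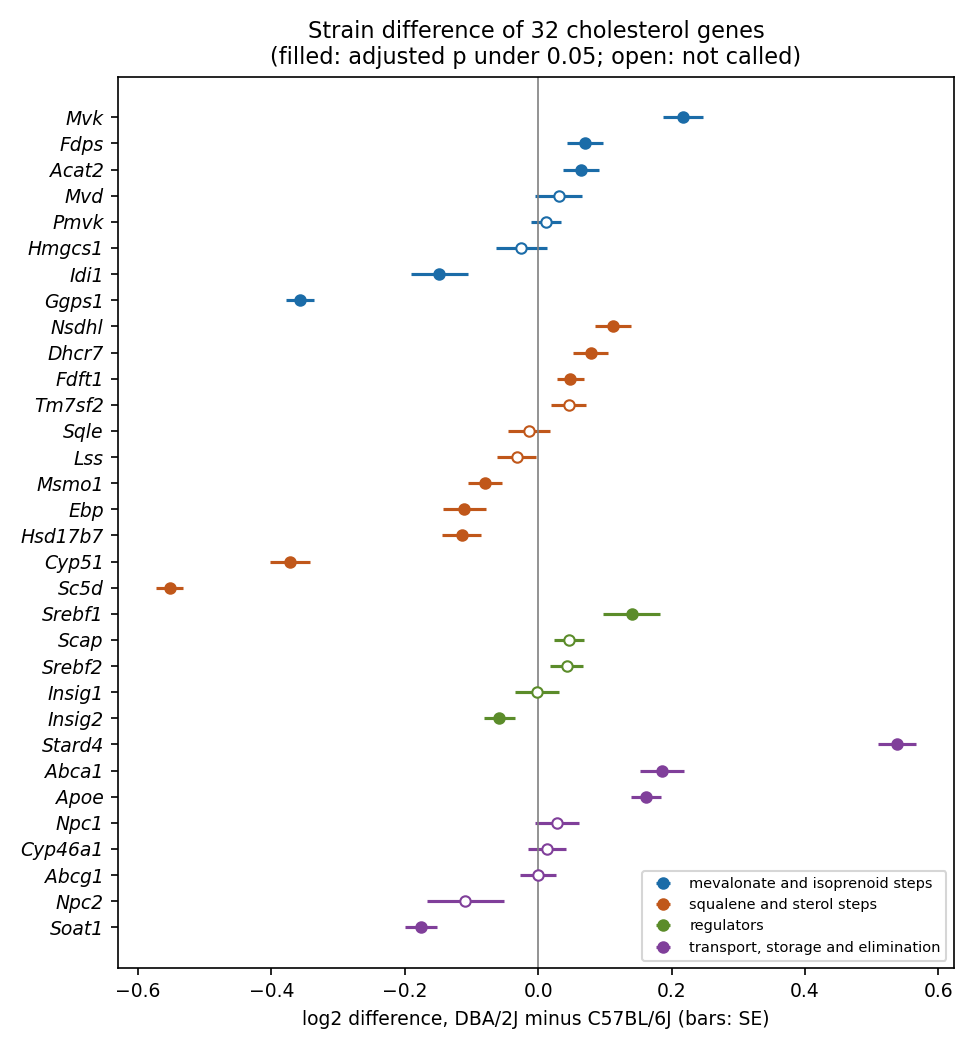
Log2 difference between DBA/2J and C57BL/6J (x axis; bars are the standard error) for the 32 genes, coloured by role; filled points had an adjusted p below 0.05. Filled points lie on both sides of 0 in every role, from -0.55 for Sc5d to 0.54 for Stard4.

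Among the early steps, Ggps1 differed most. It encodes geranylgeranyl diphosphate synthase, which leads away from sterols toward lipid anchors for proteins. Its level had a lowest value of 49.9, a median of 56.6 and a highest value of 62.7 CPM in C57BL/6J, and of 38.1, 44.1 and 49.6 CPM in DBA/2J. Every DBA/2J library was below every C57BL/6J library, and the log2 difference was -0.36 (SE 0.02, adjusted p = 3.7e-21). Mvk, encoding mevalonate kinase, went the other way, at 15.4, 17.9 and 20.5 CPM in C57BL/6J and 17.3, 20.96 and 24.0 CPM in DBA/2J, a log2 difference of 0.22 (SE 0.03, adjusted p = 1.1e-08). The ranges overlapped, and 19 of the 32 DBA/2J libraries were above the highest C57BL/6J library. Idi1 was lower in DBA/2J, with means of 8.31 ± 0.912 and 7.50 ± 0.862 CPM and a log2 difference of -0.15 (SE 0.04, adjusted p = 0.0034). Fdps, encoding farnesyl diphosphate synthase, was higher by a log2 difference of 0.07 (adjusted p = 0.024), and Acat2, encoding the thiolase of the first step, by 0.06 (adjusted p = 0.043). Hmgcs1 had closely matching means of 303 ± 29.5 and 297 ± 32.4 CPM and was not called (log2 difference -0.03, SE 0.04). Pmvk and Mvd, which encode the kinase and the decarboxylase that follow Mvk, were not called either, with log2 differences of 0.01 and 0.03.

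Among the sterol steps, Sc5d and Cyp51 were lower in DBA/2J. Sc5d encodes the desaturase that sets a late double bond of the sterol ring. Its lowest, median and highest levels were 86.2, 98.0 and 107 CPM in C57BL/6J and 59.3, 66.3 and 75.1 CPM in DBA/2J. No DBA/2J library reached the lowest C57BL/6J library, and the log2 difference of -0.55 (SE 0.02, adjusted p = 1.1e-30) had the smallest p of the 32 genes. Cyp51, encoding the lanosterol demethylase, ran from 71.3 through a median of 89.4 to 106 CPM in C57BL/6J and from 57.5 through 68.4 to 82.9 CPM in DBA/2J (log2 difference -0.37, SE 0.03, adjusted p = 6.3e-16). All 32 DBA/2J libraries were below the C57BL/6J median for Cyp51, and 22 of them below the lowest C57BL/6J library. Hsd17b7 and Ebp, encoding a ketosteroid reductase and the isomerase of later sterols, had log2 differences of -0.11 (SE 0.03, adjusted p = 0.00074) and -0.11 (SE 0.03, adjusted p = 0.0039). Msmo1, encoding the methyl sterol oxidase, had a log2 difference of -0.08 (adjusted p = 0.0077). In the other direction, Nsdhl, encoding the decarboxylating dehydrogenase that acts with Msmo1, rose from 25.4 ± 1.55 to 27.5 ± 2.03 CPM (log2 difference 0.11, SE 0.03, adjusted p = 0.00032). Dhcr7, whose enzyme completes cholesterol, was higher by a log2 difference of 0.08 (adjusted p = 0.012), and Fdft1, encoding squalene synthase, by 0.05 (adjusted p = 0.042). Sqle, encoding squalene epoxidase, had means of 61.3 ± 5.20 and 60.7 ± 5.51 CPM and was not called, as were Lss and Tm7sf2.

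Of the regulators, 1 was higher and 1 lower in DBA/2J. Insig1 had the same mean of 51.9 CPM in both strains, with SDs of 4.97 in C57BL/6J and 6.46 in DBA/2J, and a log2 difference of 0.00 (SE 0.03, adjusted p = 0.97). Insig2, its second form, was lower in DBA/2J by a log2 difference of -0.06 (adjusted p = 0.033). Srebf1, which encodes the SREBP more associated with fatty acid genes, was higher, with means of 45.1 ± 4.59 and 49.8 ± 7.14 CPM and a log2 difference of 0.14 (SE 0.04, adjusted p = 0.0047). Srebf2 and Scap had log2 differences of 0.04 and 0.05 and were not called.

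In the transport group, Stard4 was higher in every DBA/2J library than in any C57BL/6J library. Its lowest, median and highest levels were 20.4, 24.5 and 31.7 CPM in C57BL/6J and 31.9, 35.5 and 41.6 CPM in DBA/2J, a log2 difference of 0.54 (SE 0.03, adjusted p = 1.7e-23). Apoe was at 1011, 1237 and 1339 CPM in C57BL/6J and at 1211, 1358 and 1496 CPM in DBA/2J (log2 difference 0.16, SE 0.02, adjusted p = 2.4e-08). Astrocyte markers, summed, were at 6058 ± 346 and 6519 ± 420 CPM, none at 0, with 3 of 10 called higher and 4 lower, and their part in the Apoe difference was not tested. The Apoe ranges overlapped, yet the mean of each of the 8 DBA/2J groups was above that of each of the 8 C57BL/6J groups. Abca1, encoding the transporter that loads cholesterol onto apolipoproteins, was at 37.7, 50.4 and 66.8 CPM in C57BL/6J and 49.7, 58.0 and 79.5 CPM in DBA/2J, with 29 of 32 DBA/2J libraries above the C57BL/6J median (log2 difference 0.19, SE 0.03, adjusted p = 3.7e-06). Soat1 was lower, at 33.8, 38.0 and 44.0 CPM against 30.1, 34.5 and 38.6 CPM (log2 difference -0.18, SE 0.02, adjusted p = 5.4e-09). Npc1 and Npc2, which pass cholesterol out of lysosomes, Abcg1, another exporter, and Cyp46a1 were not called. Cyp46a1 had means of 124 ± 9.3 and 125 ± 9.0 CPM, and its 16 group means spanned only 120 to 130 CPM.

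**Figure D2:**
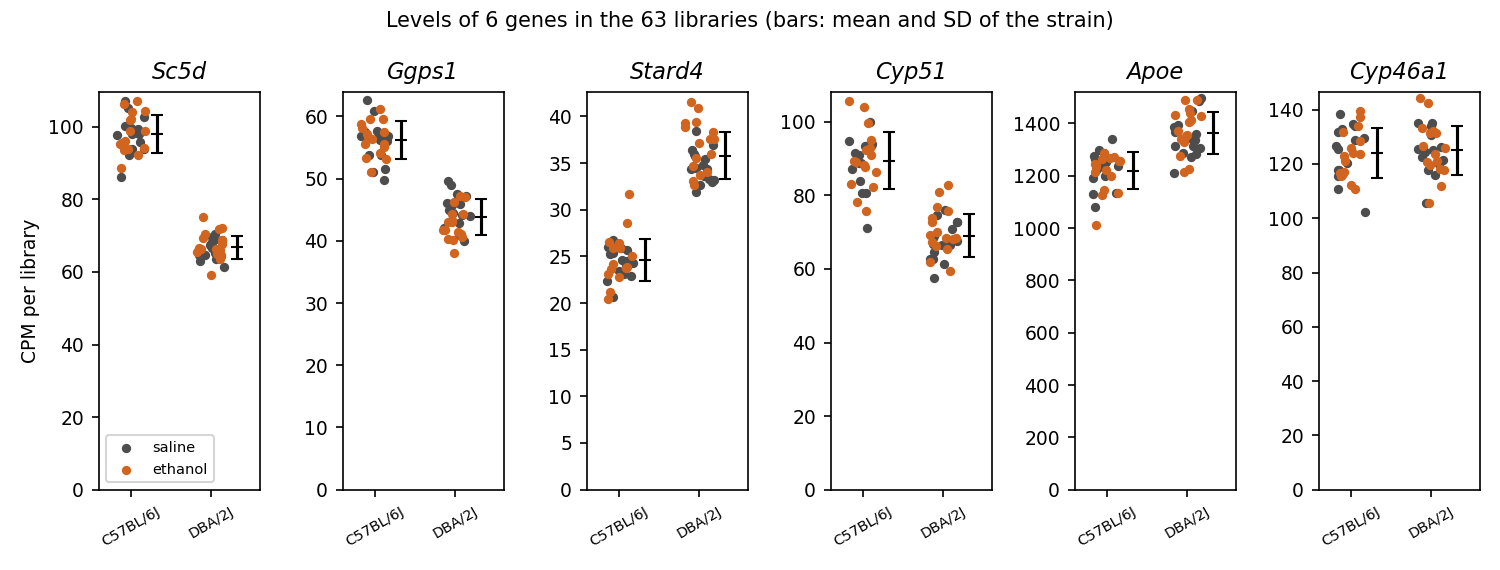
CPM (y axis, from 0) of 6 genes in each of the 63 libraries by strain (x axis); points are libraries, coloured by drug, and bars are the mean and SD of the strain. Sc5d, Ggps1 and Stard4 show ranges that do not overlap between strains, Cyp51 and Apoe overlap in part, and Cyp46a1 lies at the same level in both strains.

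Markers of oligodendrocytes, a cell type rich in sterol synthesis, also differed by strain. Each of the 12 markers was called lower in DBA/2J, at a median log2 difference of -0.39 (Mal -0.67, Mobp -0.58 and Mbp -0.29), and their summed level was 13990 ± 2371 CPM in C57BL/6J (range 8598 to 18530) and 10830 ± 2500 CPM in DBA/2J (range 5263 to 14850). No marker of the list was at 0. With the mean log2 CPM of these markers as a covariate, 17 of the 32 genes were called, among 46.5% of all genes: Idi1, Msmo1 and Ebp had log2 differences of -0.05, -0.03 and -0.02 (adjusted p = 0.45, 0.46 and 0.61), Sc5d kept -0.51, Cyp51 was at -0.27 and still called, and Npc1 was at 0.14 (adjusted p = 7.7e-05). Of the 53 other genes of lipid metabolism examined beside the 32, which cover SREBP partners, fatty acid synthesis, isoprenoid branches and other sterol handling, 30 passed the test, 17 with higher and 13 with lower levels in DBA/2J, a share near the 50% of all genes called in this comparison (25.5% higher and 24.5% lower). Fatty acid synthesis had 2 higher and 5 lower of 13 genes, with Acaca, encoding acetyl-CoA carboxylase, at -0.88 (SE 0.03, adjusted p = 3.5e-34). Isoprenoid branches had 5 higher and 2 lower of 10, with Coq2, of ubiquinone synthesis, at -0.55 (SE 0.02, adjusted p = 6.3e-31). The nuclear receptor gene Nr1h3, an activator of Abca1 in the liver X receptor pathway, was higher by 0.51 (SE 0.05, adjusted p = 1.8e-14).

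Several of these levels carry limits of counting. Acat2 has a near copy, Acat3, that is 97.7% identical over 1477 bases and whose own counts were 20.4% of those of Acat2. Fdps is overlapped on its own strand by the gene model Gm43738, and Idi1 matches a pseudogene, Gm13502, over 684 bases. Mvd and Fdft1 are overlapped by genes on the other strand, and the strand setting used for counting is not given in the sources used here. The reference build GRCm38 is the C57BL/6J genome, and its part in the strain differences was not tested.

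Transcript shares were examined next, from the deposited estimated counts per transcript. Of the 20 genes with at least 2 transcripts past the filter, 3 differed in transcript usage between strains (limma's diffSplice with Simes' method, adjusted over all genes), while 25.7% of the 9517 genes tested did. Soat1 stood out by size (adjusted p = 5.9e-48). The transcript Soat1-207, of 8371 bases, held 87.7 ± 3.10% of the gene's counts in C57BL/6J (range 82.3 to 93.7) and 63.8 ± 2.87% in DBA/2J (range 57.3 to 70.3). The shorter Soat1-201, of 2925 bases, held 10.1 ± 2.98% in C57BL/6J (range 5.60 to 15.3) and 33.1 ± 2.98% in DBA/2J (range 25.4 to 40.5). The ranges of both transcripts were apart between the strains, and how many of all transcripts had ranges apart was not computed. The lower total of Soat1 in DBA/2J came with a lower estimated share on the long transcript and a higher one on the short. The part of the C57BL/6J reference in these shares was not tested. The gene lies on the minus strand of chromosome 1, from 156424525 to 156474331 (GRCm38). Sc5d and Msmo1 were called with small shifts: Sc5d-201 held 68.7% in C57BL/6J and 72.4% in DBA/2J (adjusted p = 1.5e-06), and the second transcript of Msmo1 held 20.1% and 23.3% (adjusted p = 0.012). The count of called genes was 5 without either the first-round ethanol library of a conditioned C57BL/6J female with Insig1 at 53.1 CPM, or the first-round saline library of an unconditioned DBA/2J female with Insig1 at 52.4 CPM.

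**Figure D3:**
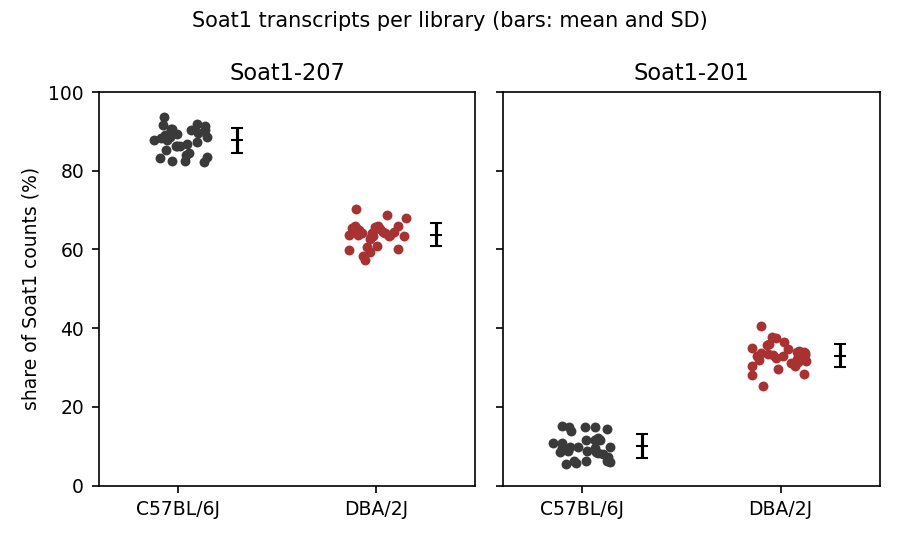
Share of Soat1 counts (y axis, percent, 0 to 100) on the transcripts Soat1-207 and Soat1-201 in each library by strain (x axis); bars are the mean and SD. Soat1-207 lies between 57.3 and 70.3% in DBA/2J and above 82% in every C57BL/6J library, and Soat1-201 mirrors it.

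Ethanol was compared with saline over both strains, and then within each. Over both, none of the 32 genes was called by edgeR or by DESeq2, among 0.546% of all genes called by edgeR. At an unadjusted p below 0.05 there were 9 of the 32 genes, all with higher means after ethanol, beside 4.65% of all genes with an unadjusted p below 0.05 in that direction. The log2 difference was above 0 for 25 of the 32 genes, beside 50.3% of all genes, and for all 11 of the squalene and sterol steps. The smallest p-values belonged to Insig1 at 0.12 (SE 0.03, adjusted p = 0.11), Sqle at 0.10 (SE 0.03, adjusted p = 0.19), Hsd17b7 at 0.07 (adjusted p = 0.40) and Lss at 0.07 (adjusted p = 0.46). Without 1 second-round ethanol library of a conditioned DBA/2J male, whose Insig1 level of 46.6 CPM was the lowest of its group, Insig1 was called at 0.13 (adjusted p = 0.023). Leaving out a low ethanol library raises the difference. Over the 63 edgeR fits that each left out 1 library, Insig1 was called in 1, with adjusted p from 0.023 to 0.21.

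In C57BL/6J alone, none of the genes was called by edgeR or DESeq2 and none had an unadjusted p below 0.05, among 0.0901% of all genes called. The unadjusted share over all genes was 4.22%. The median log2 difference was 0.01, and 19 of 32 were above 0, beside 48.3% of all genes. The smallest p was that of Sqle, at 0.09 (SE 0.04, unadjusted p = 0.059), followed by Soat1 at -0.05, Acat2 at 0.06 and Fdft1 at 0.04. Insig1 had means of 50.9 ± 5.38 CPM after saline and 52.9 ± 4.50 CPM after ethanol.

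In DBA/2J the means after ethanol were higher for 28 of the 32 genes, with a median log2 difference of 0.05, beside 51.8% of all genes above 0. None was called by edgeR, among 0.295% of all genes called, and 10 had an unadjusted p below 0.05, 9 of them higher and Ggps1 lower, beside 4.33% of all genes higher and 4.03% lower. DESeq2 called 1 gene, among 0.551% of all genes, Insig1 (log2 difference 0.18, adjusted p = 0.030). Insig1 had a lowest value of 43.1, a median of 48.1 and a highest value of 54.6 CPM after saline, and of 44.0, 55.0 and 69.3 CPM after ethanol. The ranges overlapped, with 13 of 16 ethanol libraries above the saline median, and edgeR gave a log2 difference of 0.18 (SE 0.05, adjusted p = 0.077). Lss was at 40.4, 47.1 and 53.9 CPM after saline and 43.9, 51.6 and 61.6 CPM after ethanol, with 14 of 16 ethanol libraries above the saline median (0.15, SE 0.04, adjusted p = 0.11). Dhcr7 was at 37.0, 42.5 and 48.5 CPM against 38.4, 46.7 and 51.1 CPM, again with 14 of 16 above (0.13, SE 0.04, adjusted p = 0.17). Ggps1, the branch toward protein anchors, had means of 45.1 ± 2.72 and 42.7 ± 2.60 CPM (-0.08, SE 0.03, adjusted p = 0.41). Mvd, Sqle, Hsd17b7, Npc1, Stard4 and Msmo1 were the other genes with an unadjusted p below 0.05, all with higher means after ethanol. The early gene Hmgcs1 had means of 287 ± 32.5 and 308 ± 29.5 CPM and was not among them. Without the second-round ethanol library of the conditioned male at 46.6 CPM of Insig1, edgeR called Insig1 at 0.21 (adjusted p = 0.010). Without that of an unconditioned male at 44.0 CPM it called Insig1 at 0.20 (adjusted p = 0.034) and Lss at 0.16 (adjusted p = 0.039). Both were ethanol libraries low in Insig1, so leaving them out raises its difference. Over the 63 edgeR fits that each left out 1 library, Insig1 was called in 2 (adjusted p from 0.010 to 0.17). Lss was called in 1 (adjusted p from 0.039 to 0.24).

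The rounds of title numbers differed in these values. In the first round of DBA/2J, 29 of the 32 genes were above 0 with a median of 0.12, and in the second round 17 of 32 with a median of 0.005, beside a median of 0.005 over all genes in each. Insig1 had a log2 difference of 0.18 in both rounds, and Ggps1 had -0.08 and -0.07. Sqle and Hmgcs1 both had 0.22 in the first round and 0.01 in the second, and Lss had 0.20 and 0.10. Npc2 was the 1 gene called in the first round, among 0.354% of all genes, at 0.27 (SE 0.05, adjusted p = 0.036). It had -0.18 in the second (adjusted p = 0.84), where 0 of the 32 genes were called, among 0.0759% of all genes. Summed choroid plexus markers in DBA/2J were 1464 ± 1596 CPM after saline and 3794 ± 4157 CPM after ethanol in the first round. In the second they were 5200 ± 6162 and 2125 ± 3894 CPM, and their part in the Npc2 values was not tested. For Hmgcs1 the ethanol libraries of DBA/2J had a mean of 308 CPM in both rounds, while the saline libraries had 265 ± 23.7 CPM in the first and 308 ± 25.8 CPM in the second. The difference between the rounds itself was not tested, and within a round the drug coincides with a letter of the titles. In C57BL/6J the medians of the rounds were 0.02 and 0.005.

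**Figure D4:**
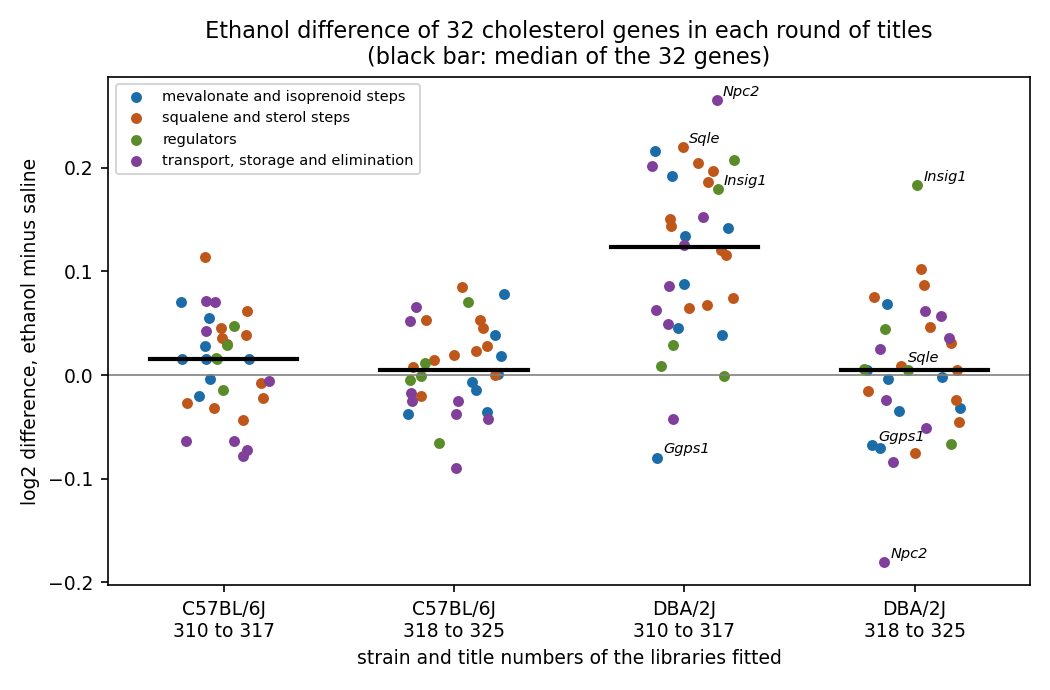
Log2 difference between ethanol and saline (y axis) for the 32 genes in each strain and round of title numbers (x axis); points are genes coloured by role and black bars are the median. The DBA/2J median is 0.12 in the lower title numbers and 0.005 in the higher ones, where Insig1 is at 0.18 as in the first.

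Markers of several cell types also moved with ethanol in DBA/2J, without any call. All 12 oligodendrocyte markers were above 0 (median 0.15), as were all 8 of oligodendrocyte precursors (0.13), 10 of 10 of astrocytes (0.04), 10 of 10 of microglia (0.04) and 10 of 10 of endothelium (0.05), against 3 of 12 of neurons (-0.01) and 0 of 12 of choroid plexus (-0.33). The summed oligodendrocyte markers were 9457 ± 1427 CPM after saline and 11990 ± 2278 CPM after ethanol in the first round, and 11300 ± 3102 and 10590 ± 2612 CPM in the second. With the mean log2 CPM of these markers as a covariate, the median of the 32 genes in DBA/2J was 0.03, 25 of 32 were above 0, Insig1 was at 0.16 (adjusted p = 0.12) and Lss at 0.11 (adjusted p = 0.17). With the choroid plexus markers as the covariate the median was 0.05, and 28 of 32 were above 0.

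The ethanol difference was then compared between strains as an interaction. None of the 32 genes was called by edgeR or DESeq2, among 0.01% of all genes called by edgeR, and 3 had an unadjusted p below 0.05, beside 3.6% of all genes. These were Lss, where the DBA/2J difference exceeded that of C57BL/6J by 0.15 (SE 0.06, unadjusted p = 0.012), Dhcr7 at 0.13 (unadjusted p = 0.020) and Ggps1 at -0.09 (unadjusted p = 0.038). Npc1 followed at 0.13 (unadjusted p = 0.054). The higher values after ethanol in DBA/2J were therefore not shown to differ from those in C57BL/6J for any of the genes. Over both rounds 28 of the 32 values were above 0, beside 52.4% of all genes. By round, 28 of 32 were above 0 in the first (median 0.11) and 13 of 32 in the second (median -0.01). The ethanol difference did not pass the test of a dependence on conditioning either: 0 genes were called by edgeR or DESeq2 and 0 had an unadjusted p below 0.05 (2.96% of all genes did), among 0% of all genes called, and the smallest p-values were those of Hmgcs1 (0.10), Tm7sf2 (-0.06), Ggps1 (0.04) and Scap (-0.04).

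Fear conditioning gave no call among the 32 genes by edgeR or DESeq2, among 0.02% of all genes called by edgeR, and 1 gene, Abca1, had an unadjusted p below 0.05, beside 3.49% of all genes. Abca1 had means of 56.0 ± 7.2 CPM with conditioning and 53.0 ± 6.83 CPM without (log2 difference 0.08, SE 0.03, unadjusted p = 0.015). Cyp51 at -0.05, Srebf1 at 0.05 and Ebp at -0.04 came next. Of the 32 genes 22 were below 0, beside 48.9% of all genes. The synthesis enzymes lay below 0 in 18 of 19 cases, each by a small amount, with the 8 early steps between -0.05 and 0.00. In both rounds conditioning coincides with the letters of the titles. All 12 oligodendrocyte markers were also below 0 with conditioning (median -0.07). With their mean log2 CPM as a covariate, 7 of the 19 enzymes were above 0, and the median of the 32 genes was 0.00089. By round the count was 13 of 19 in the first and 18 of 19 in the second, and Abca1 had 0.08 (unadjusted p = 0.065) and 0.09 (unadjusted p = 0.12). Within strains the count was 16 of 19 in C57BL/6J and 12 of 19 in DBA/2J. No gene was called in either strain by edgeR or DESeq2, among 0% of all genes in each, and the unadjusted count was 1 in C57BL/6J (Abca1 at 0.11, unadjusted p = 0.024) and 0 in DBA/2J, where Abca1 had 0.06, beside 3.94% and 3.35% of all genes. All 12 choroid plexus markers were above 0 with conditioning, at a median of 0.73 over both strains and 1.52 in DBA/2J. In C57BL/6J 4 of the 12 were above 0, at a median of -0.02. With these markers as a covariate, Abca1 had 0.05 over both strains (SE 0.03, unadjusted p = 0.057), and 0 of the 32 genes had an unadjusted p below 0.05. The strain dependence of conditioning gave 0 calls by edgeR and DESeq2 and 0 unadjusted (3.63% of all genes), among 0% of all genes called, and its smallest p-values belonged to Tm7sf2 (-0.08), Insig2 (0.06), Stard4 (0.07) and Fdps (0.06).

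None of the 32 genes was called between males and females by edgeR or DESeq2, among 0.2% of all genes called by edgeR, and 5 genes had an unadjusted p below 0.05, beside 5.48% of all genes. Abca1 was again first, with means of 56.5 ± 8.61 CPM in males and 52.5 ± 4.61 CPM in females (log2 difference 0.10, SE 0.03, adjusted p = 0.44). All 12 choroid plexus markers were also above 0 in males (median 0.51), with 0 called. Their part in the Abca1 difference was not tested. Srebf2 at -0.06, Npc1 at 0.08 and Fdft1 at -0.04 had adjusted p-values of 0.75, 0.77 and 0.90. Means were higher in males for 17 of the 32 genes, beside 51.8% of all genes. The rounds went opposite ways: 9 of the 32 genes had the higher mean in males in the first (median -0.04) and 28 of 32 in the second (median 0.03), and none was called in either. Nsdhl and Ebp, which lie on the X chromosome, were not called.

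Over the 16 groups, means of Abca1 ran from 46.1 ± 5.97 CPM in ethanol-injected, unconditioned C57BL/6J males (n = 4) to 64.7 ± 10.14 CPM in saline-injected, conditioned DBA/2J males (n = 4). Insig1 ran from 46.3 ± 2.66 CPM in saline-injected, conditioned DBA/2J females to 61.3 ± 10.02 CPM in ethanol-injected, conditioned DBA/2J males, and the SD of this last group was the widest of the 16. Hmgcs1 had its lowest and highest group means both in DBA/2J females, 274 ± 25.1 CPM after saline with conditioning and 314.8 ± 44.2 CPM after ethanol without it. Sqle ranged from 56.9 ± 3.84 to 64.1 ± 2.07 CPM, with all 4 ethanol means of DBA/2J above all 4 of its saline means.

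Some of the genes also varied together among libraries of the same group. Each library's deviation from the mean of its group was taken on the log2 CPM scale, and the deviations of Insig1 were compared with those of the other 31 genes over the 63 libraries. Of these 31 relations, 11 had an unadjusted p below 0.05 by permutation within groups, 10 of them positive. The permutation was run for these 31 genes alone, so no share over all genes stands beside that count. The closest was with Lss (Pearson r = 0.648, Spearman rho = 0.599, permutation p = 1e-05, the smallest that the permutations can give), followed by Fdft1 (r = 0.579, rho = 0.581, permutation p = 0.00024), Mvd (r = 0.558, rho = 0.553, permutation p = 4e-05), Dhcr7 (r = 0.526, rho = 0.485, permutation p = 0.00048) and Mvk (r = 0.5, rho = 0.488, permutation p = 0.00023). The same r was computed for all 19973 other genes tested, whose median was 0.008. Lss ranked 2 of them, Fdft1 ranked 6, Mvd 11, Dhcr7 26, Mvk 41 and Srebf1 42 (r = 0.499). Srebf2 (r = 0.457) ranked 118 and Hsd17b7 (r = 0.396) ranked 372, and 9 of the 31 genes were among the 5% of genes with the highest r.

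Insig1 varied less with other enzymes of the same pathway. Sqle had r = 0.31 and Hmgcs1 r = -0.041. Without the 2 libraries farthest from the median of Insig1, both of ethanol-injected, conditioned DBA/2J males at 64.8 and 69.3 CPM, r was 0.629 for Lss, 0.638 for Fdft1, 0.543 for Mvd and 0.45 for Mvk. Within the rounds of title numbers r was 0.772 and 0.766 for Lss, 0.443 and 0.561 for Fdft1, 0.495 and 0.633 for Mvd, 0.387 and 0.763 for Dhcr7, and 0.603 and 0.642 for Mvk, while that for Stard4 was 0.488 in the first and -0.405 in the second. The GC content of transcripts moved with these values: across the 31 genes, which are not independent replicates, r with Insig1 and GC percent were correlated at 0.579. When each library's trend with GC was removed, that value was -0.002, Lss again ranked 2 (r = 0.652), Hsd17b7 ranked 12 (r = 0.514), Fdft1 17 (r = 0.504), Dhcr7 26 (r = 0.485), Stard4 98 (r = 0.42) and Mvd 101 (r = 0.418), and 13 of the 31 were among the highest 5%. Srebf1 (r = 0.367), Mvk (r = 0.355) and Srebf2 (r = 0.329) ranked 260, 307 and 478, beside 42, 41 and 118 as measured.

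**Figure D5:**
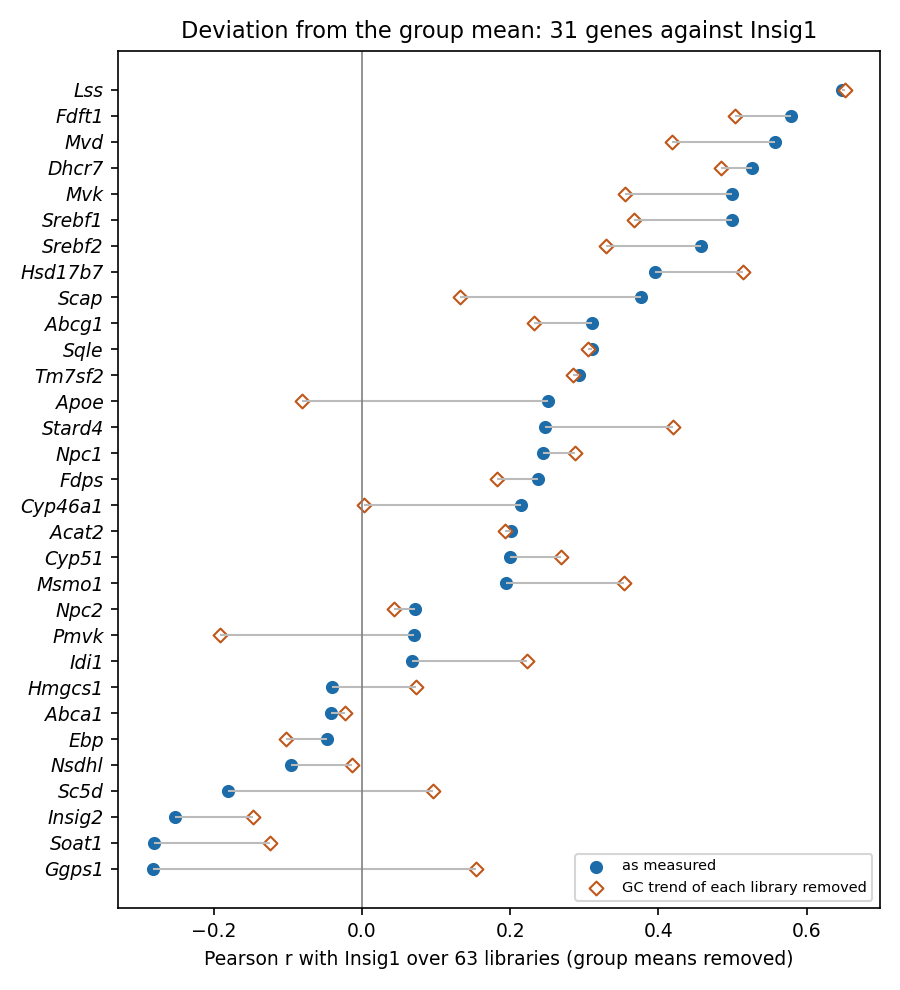
Pearson r between the deviations of Insig1 and of 31 genes from their group means over 63 libraries (x axis), by gene (y axis); circles are values as measured and diamonds are values after the GC trend of each library was removed. Lss is at the top with r = 0.648 and 0.652, and Hmgcs1 lies near 0 in both.

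Other pairs of the 32 genes were close as well. The deviations of Hmgcs1 correlated with those of Sc5d at r = 0.855, or 0.796 with the GC trend removed. Cyp51 and Fdps had r = 0.758 (0.763 with the trend removed), Cyp51 and Msmo1 0.722 (0.715), and Msmo1 and Stard4 0.718 (0.667). Scap and Srebf2, escort and cargo, had the highest r of all pairs at 0.869, which was 0.644 with the trend removed. Over the 171 pairs of synthesis enzymes the median r was 0.293, and 145 pairs were above 0, with 146 after removal of the trend. The median over all 496 pairs of the 32 genes was 0.199, with 348 above 0. Pairs of all genes tested were not computed, so no share over all genes stands beside these counts. Cyp46a1 lay opposite to several genes, with r = -0.619 to Sc5d (-0.471 with the trend removed) and -0.565 to Npc2 (-0.67). The negative r of -0.629 between Ggps1 and Scap was 0.036 after the trend was removed. These values describe pairs of genes measured in the same 63 libraries and carry no test.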

How the data were processed

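RNA of dorsal hippocampus from 63 mouse samples was measured by poly(A)-selected, stranded, single-read sequencing of 75 nt, per the labels' protocols. The authors deposited read counts per gene with gene lengths in bases (used to give levels per kilobase), and estimated counts per transcript, with no samples pooled. The submitters' processing notes name fastp, HISAT2, featureCounts, Salmon, DESeq2 and the build GRCm38; versions and settings are not given in the sources used here. GRCm38 is the C57BL/6J genome, so counts in DBA/2J could be lower where its sequence differs, which was not tested.

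Gene counts were fitted with edgeR 4.0.16 in R 4.3.3 (quasi-likelihood test, TMM scaling, factors 0.959 to 1.05, 1 coefficient per group over all 63 libraries). Genes were kept by edgeR's expression filter at a minimum count of 10, which left out 35427 genes and kept 99.95% of counts. Contrasts gave equal weight to groups, p-values were two-sided and adjusted by Benjamini-Hochberg over all 19974 genes, and 0.05 was the threshold. Differences are DBA/2J minus C57BL/6J, male minus female, ethanol minus saline and FC minus noFC; the SE is the log2 difference over the square root of F. Log2 CPM used a prior count of 2. Estimated transcript counts were rounded and tested with limma 3.58.1 (voom, diffSplice) for transcripts with at least 10 counts in 3 libraries and 5% of their gene; 1.2% of these counts had no match in the annotation. Correlations with Insig1 used 1e+05 permutations within groups, two-sided. The code was tested on simulated data.

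The 32 genes and the lists of other lipid genes and cell markers were chosen with earlier results of these data known. All 32 genes could be named. In each comparison up to 8 called genes per direction with the smallest p, or else the 4 with the smallest p, were given in full. Of other genes up to 4 called lipid genes and 3 markers per list were named. Alternatives were other scalings and filters, DESeq2 1.42.0, gene sums of transcript counts, each round of title numbers, each strain alone, marker covariates, a replicate block, leaving out each library and, chosen after seeing the data, removal of each library's GC trend and of 3 saline libraries of DBA/2J high in heat shock genes. Gene symbols come from GENCODE M21, which held 55141 of the 55401 identifiers, and upstream sequences from RefSeq (GRCm38.p6).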

Additional observations from a re-analysis of the deposited data

Results flagged for a closer look

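Hmgcs1, Sqle, Insig1, Abca1, Apoe and Cyp46a1 were each examined in every group of 4 libraries, which gave 90 combinations of gene and group. Of these, 3 had a library far from the other 3, and chance alone gives about 1 in 20, a higher rate than that found. The same libraries serve every gene, so the 90 are not independent. Hmgcs1 was at 282 CPM in 1 ethanol-injected, conditioned C57BL/6J female of the second round, beside at least 309 CPM in the others of that group. Sqle was at 69.5 CPM in 1 ethanol-injected, unconditioned C57BL/6J female of the first round, beside 58.9 to 60.3 CPM. Insig1 was at 43.6 CPM in 1 saline-injected, unconditioned DBA/2J female of the second round, beside 52.4 to 53.9 CPM. That last library is also 1 of the 3 high in heat shock genes.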

How the results depend on the processing

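Each title number held libraries of 1 strain and sex that differed in drug or conditioning. Whether the numbers pair the libraries is not stated, and the values do not settle it. The deviations of same-numbered libraries from their group means had a median correlation of 0.04 over 93 pairs (lowest -0.52), beside -0.01 over 279 pairs with different numbers. The correlation was above 0.1 for 32 of the 93 pairs and for 73 of the 279. With the number as a replicate block, the ethanol comparison called 1 of the 32 genes (Insig1 at 0.12, adjusted p = 0.015) and ethanol in DBA/2J called 2 (Insig1 at 0.18, adjusted p = 0.011, and Lss at 0.15, adjusted p = 0.029), where no block gave 0. The block also raised the count over all genes for ethanol in DBA/2J, from 59 to 109. Its count over all genes for ethanol over both strains is not given here. Ethanol in DBA/2J also called 1 gene from gene sums of transcript counts (Insig1 at 0.18, adjusted p = 0.046), 1 in the first round alone (Npc2) and 1 with DESeq2 (Insig1). Leaving out single libraries gave 0 to 1 calls for ethanol, 0 to 2 for ethanol in DBA/2J, 16 to 20 for strain and 3 to 5 for transcript usage. In the same fits the counts over all genes were 92 to 125, 42 to 84, 9827 to 10136 and 2333 to 2475. Across the other settings the strain comparison called between 13 genes (the second round, among 35.6% of all genes) and 20 (choroid plexus covariate). The share over all genes with that covariate is not given here. The strain difference of Fdft1 was -0.0018 in the first round. Among the other values followed across the settings, signs turned in gene sums for Fdft1, between the sexes (0.0109) and with conditioning in C57BL/6J (0.0046). They turned in the first round for Abca1 with conditioning in DBA/2J (-0.00739) and for Tm7sf2 in ethanol by conditioning (0.0243), and in the second round for Npc1 in ethanol by strain (-0.0273). The cause was not tested. Over all 32 genes, the strain difference had the opposite sign to that over both rounds for 5 in the first round (Fdft1, Mvd at -0.03, Cyp46a1 at -0.02, Sqle at 0.0015 and Abcg1 at -0.01) and for 1 in the second (Insig1 at 0.03), and the ethanol difference in DBA/2J for 3 and 11. Over all genes, the count called for ethanol in DBA/2J was 59, and 33 without the filter, 15 in the second round, 109 with the block, 27 with the strain alone, 108 with the GC trend removed and 110 with DESeq2. For ethanol over both strains it was 109, and 66 without the filter, 11 and 34 in the rounds and 166 with the GC trend removed; in C57BL/6J it was 18, and 0 and 1 in the rounds. For sex it was 40, and 17 and 23 in the rounds. For conditioning it was 4, and 0 in each round, 7 with the choroid plexus covariate and 8 with DESeq2. Counts among the 32 genes, with transcript usage and the relations with Insig1, stayed within 1.5 times in 884 alternatives and moved further in 10. Most comparisons had 0 calls to begin with, and 0 against 0 was taken as unchanged. The 884 therefore say little about how stable the calls are. Without the 3 DBA/2J saline libraries high in heat shock genes, the 32 genes had a median ethanol difference of 0.05 in DBA/2J with 28 above 0, and with the GC trend removed the median was 0.05.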
